A study of Mus musculus with 2 samples.

Results

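The genes described here build the elastic fibre and its microfibril scaffold in the mouse lung. They are elastin (Eln), fibulin-1 and fibulin-5 (Fbln1, Fbln5), fibrillin-1 (Fbn1), the microfibril-associated proteins Mfap4 and Mfap5, lysyl oxidase (Lox), lysyl oxidase-like 1 (Loxl1) and latent TGF-beta binding protein 4 (Ltbp4). They were chosen by symbol, as 9 of the symbols listed in both libraries' gene tables, and they take 10 of 27998 gene rows because Ltbp4 has 2 gene identifiers. The study injected labelling-4T1 cells, named for the mouse mammary carcinoma line 4T1, intravenously into mice and took the lungs 7 days later. Dissociated CD45- cells, which lack the surface marker of blood-derived cells, were sorted by FACS into 1 library titled Cherry_Positive and 1 titled Cherry_Negative and read with Chromium 3' single-cell RNA-seq. Both libraries come from lungs that had received 4T1 cells. The sources used here do not give strain, age, sex, the number of mice or whether these lungs were irradiated. They also do not say what the Cherry label, named in the library titles, marks. With 1 library per sort group there is no replicate, so no difference below was tested, and each interval covers counting error only.

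Elastic fibres let the lung stretch and recoil. Cells secrete tropoelastin, fibulins help to gather it on a scaffold of fibrillin microfibrils, and lysyl oxidases cross-link it into an insoluble core. Latent TGF-beta binding proteins sit on the same microfibrils, where they hold the inactive growth factor, and Ltbp4 also takes part in elastin assembly through fibulin-5. In the lung, fibroblasts, myofibroblasts and smooth muscle of airways and vessels are known makers of these proteins.

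All 9 genes are protein-coding in GENCODE M21, whose build is GRCm38 (mm10). Eln spans chr5:134702593-134747323 on the minus strand, Fbln1 chr15:85205949-85286535 on the plus strand and Fbln5 chr12:101746565-101819055 on the minus strand. Fbn1 spans chr2:125300594-125507993 (minus), Mfap4 chr11:61485431-61488900 (plus) and Mfap5 chr6:122505845-122529290 (plus). Loxl1 spans chr9:58287738-58313186 (minus) and Ltbp4 chr7:27305136-27337692 (minus). Lox is encoded on the minus strand. None overlaps another gene on its own strand. Eln, Fbn1, Mfap4 and Lox overlap Gm30003, Gm9913, Mapk7 and AC161119.1 on the opposite strand, and the sources used here do not say whether the counting used strand. The Ltbp4 identifier ENSMUSG00000040488 carried 1792 and 1598 UMIs in the Cherry_Positive and Cherry_Negative libraries, and ENSMUSG00000108715, which is not in that annotation, carried 0 in both.

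Upstream sequence is shown for 3 members with contrasting patterns below: Fbln5 and Ltbp4, both lower in the Cherry_Positive alveolar fibroblast-like cells, and Fbln1, which was near equal there and had its highest level in another fibroblast class. RefSeq (GRCm38.p6) start sites were at hand for 4 of the 9 genes, these 3 and Fbn1. Each stretch runs 5' to 3' on the gene's strand and ends just before the start or, for Ltbp4, before the first annotated exon. Capitals mark matches on either strand to the GC box GGGCGG and the CCAAT box CCAAT. Fbln5 is chr12:101819120-101819369 (minus strand), Ltbp4 chr7:27337693-27337862 (minus strand) and Fbln1 chr15:85205699-85205948 (plus strand).
Fbln5: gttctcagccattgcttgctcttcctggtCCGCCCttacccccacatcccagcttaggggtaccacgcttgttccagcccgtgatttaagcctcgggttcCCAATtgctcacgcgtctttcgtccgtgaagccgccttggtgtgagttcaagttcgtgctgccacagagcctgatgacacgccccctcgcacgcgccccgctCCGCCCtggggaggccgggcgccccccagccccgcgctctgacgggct
Ltbp4: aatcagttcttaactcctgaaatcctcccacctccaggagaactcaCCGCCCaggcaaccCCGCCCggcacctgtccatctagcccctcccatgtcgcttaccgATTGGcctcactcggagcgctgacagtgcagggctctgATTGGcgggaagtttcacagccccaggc
Fbln1: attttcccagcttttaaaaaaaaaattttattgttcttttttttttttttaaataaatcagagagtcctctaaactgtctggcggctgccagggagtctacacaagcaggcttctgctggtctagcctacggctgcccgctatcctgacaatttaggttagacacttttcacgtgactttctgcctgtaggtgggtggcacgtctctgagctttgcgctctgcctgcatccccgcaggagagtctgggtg
The Fbln5 stretch holds 2 GC boxes and 1 CCAAT box, the Ltbp4 stretch 2 of each, and the Fbln1 stretch 0 of either. Among 32817 RefSeq promoter windows of 250 bases, 32.7% hold a GC box and 33.8% a CCAAT box, so both are common letters. The TATA box TATAAA (12.4% of windows) and the AP-1 site TGANTCA (6.75%) have 0 matches in the 3 printed stretches. These matches describe letters and say nothing about binding.

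After filtering, the Cherry_Positive library held 1766 cells and the Cherry_Negative library 2804, from 10094853 and 11632459 UMIs in all barcodes and a median of 4324 and 2971 UMIs per barcode. The libraries share 13 barcodes. A UMI of Ptprc, which encodes CD45, was found in 25 cells (1.42%) and 22 cells (0.785%). Levels are UMIs of a gene divided by all UMIs of a class in 1 library, scaled to counts per 1000000 (CPM). Classes were rebuilt here from marker genes and carry "-like", and no member served as a marker. The members did enter the clustering. Mfap4 was among the 10 leading genes of clusters 1 and 21, Eln of cluster 9, Fbln1 of the adventitial cluster 8 and Fbln5 of the arterial cluster 16, so their levels across clusters are descriptions.

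Elastin, the core of the fibre, had similar levels over the 3 fibroblast classes in the Cherry_Positive library, with 1055 CPM in myofibroblast-like, 1015 in alveolar fibroblast-like and 868 in adventitial fibroblast-like cells. The intervals of the first 2, 998 to 1113 and 986 to 1044 CPM, overlap. In the Cherry_Negative library it was 1525 CPM (95% Poisson interval 1278 to 1806) in 20 smooth muscle-like cells, 1120 in adventitial, 1056 in alveolar fibroblast-like and 553 in myofibroblast-like cells. Adventitial and alveolar fibroblast-like cells overlapped there too, at 1034 to 1212 and 1006 to 1107 CPM. Alveolar fibroblast-like cells, the most numerous mesenchymal class, held 66.7% and 53.0% of all Eln UMIs of their library. Outside the mesenchyme Eln reached 344 CPM (290 to 405) in 94 venous endothelial-like cells of the Cherry_Negative library, where the richest cell held 11.1% of the UMIs. A value of 383 CPM in 23 lymphatic-like cells of the Cherry_Positive library rested mostly on 1 cell with 64.7% of the UMIs. Type 2 alveolar epithelial-like cells of that library gave 133 CPM with 87.5% in 1 cell. Pericyte-like and capillary-like cells were low, between 26.7 and 107 CPM.

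The 2 fibulins had different cell distributions. Fbln1, which binds both elastic fibres and basement membranes, was highest in adventitial fibroblast-like cells, at 1430 CPM (Cherry_Positive) and 1343 CPM (Cherry_Negative), which held 51.3% and 61.7% of its UMIs. Alveolar fibroblast-like cells had 210 and 196 CPM and myofibroblast-like cells 128 and 325. No endothelial or pericyte-like class of at least 20 cells exceeded 8.63 CPM. Fbln5, which tethers tropoelastin to cells and microfibrils, was highest outside the mesenchyme. It reached 873 CPM (752 to 1007) in 57 type 1 alveolar epithelial-like cells of the Cherry_Negative library, with at most 6.45% of its UMIs in 1 cell. In the Cherry_Positive library, 23 lymphatic-like cells had 488 CPM (377 to 622). The arterial-like class of the Cherry_Negative library split by cluster. Cluster 16, 39 cells with the large-vessel genes Bmx, Gja4 and Gja5 among its leading genes, had 1083 CPM, and cluster 3, 396 cells, had 6.78 CPM. Cluster 3 scored higher for general capillary markers (3.04) than for arterial markers (2.51), and its arterial name rests on its leading genes. Cluster 16 also had more Eln than cluster 3 (585 CPM, 454 to 741, with 68 UMIs, against 93 UMIs in the far larger cluster 3) and more Ltbp4 (636 against 77.4 CPM).

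Among the microfibril genes, Fbn1, the main backbone protein of microfibrils, was found in all 4 larger mesenchymal classes. Its highest level was in adventitial fibroblast-like cells, at 336 and 366 CPM in the Cherry_Positive and Cherry_Negative libraries. Alveolar fibroblast-like cells had 247 and 150 CPM, myofibroblast-like cells 206 and 103 CPM, and pericyte-like cells 151 (105 to 210) and 138 (81.9 to 218) CPM. In pericyte-like cells Fbln1, Mfap5, Lox and Loxl1 gave at most 2 UMIs each in either library. Mfap4, a fibrinogen-related protein of microfibrils, belonged mainly to the alveolar fibroblast-like cells, which held 92.5% and 90.7% of its UMIs at 5999 and 14954 CPM. Adventitial fibroblast-like cells came next at 1382 and 2345 CPM. Mfap5, a small glycoprotein that binds fibrillin, was highest in adventitial fibroblast-like cells at 1302 and 1514 CPM. It stood at 336 and 356 CPM in myofibroblast-like and 247 and 226 CPM in alveolar fibroblast-like cells. An Mfap4 level of 798 CPM in type 1 alveolar epithelial-like cells of the Cherry_Negative library rested on 1 cell with 153 of its 170 UMIs.

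The 2 cross-linking enzymes did not share 1 distribution. Lox, which oxidises lysines of elastin and collagen, was highest in alveolar fibroblast-like cells at 191 and 161 CPM, with 86.0% and 76.1% of its UMIs. It was 99.3 and 86.4 CPM in adventitial fibroblast-like cells and 20.8 and 11.1 CPM in myofibroblast-like cells. Loxl1, which acts mainly on elastin, was near equal in alveolar and adventitial fibroblast-like cells, with 560 and 568 CPM in the Cherry_Positive library and 682 and 702 CPM in the Cherry_Negative library. The class intervals overlap within each library. Myofibroblast-like cells had 272 and 222 CPM. Pericyte-like cells had 0 Lox UMIs in both libraries, which allows up to 12.9 and 23.0 CPM at 3 counts. Ltbp4 was highest among classes of at least 20 cells in adventitial fibroblast-like cells, at 473 and 686 CPM. Lymphatic-like cells had 330 CPM in the Cherry_Positive library, and arterial-like cells 152 and 134 CPM in the Cherry_Positive and Cherry_Negative libraries. Most of these arterial-like cells belong to cluster 3, which scored higher for general capillary markers. The Ltbp4 UMIs did not follow the cells. In the Cherry_Negative library the 396 cells of cluster 3 held 80 (77.4 CPM) and the 39 cells of cluster 16 held 74 (636 CPM).

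**Figure D1:**
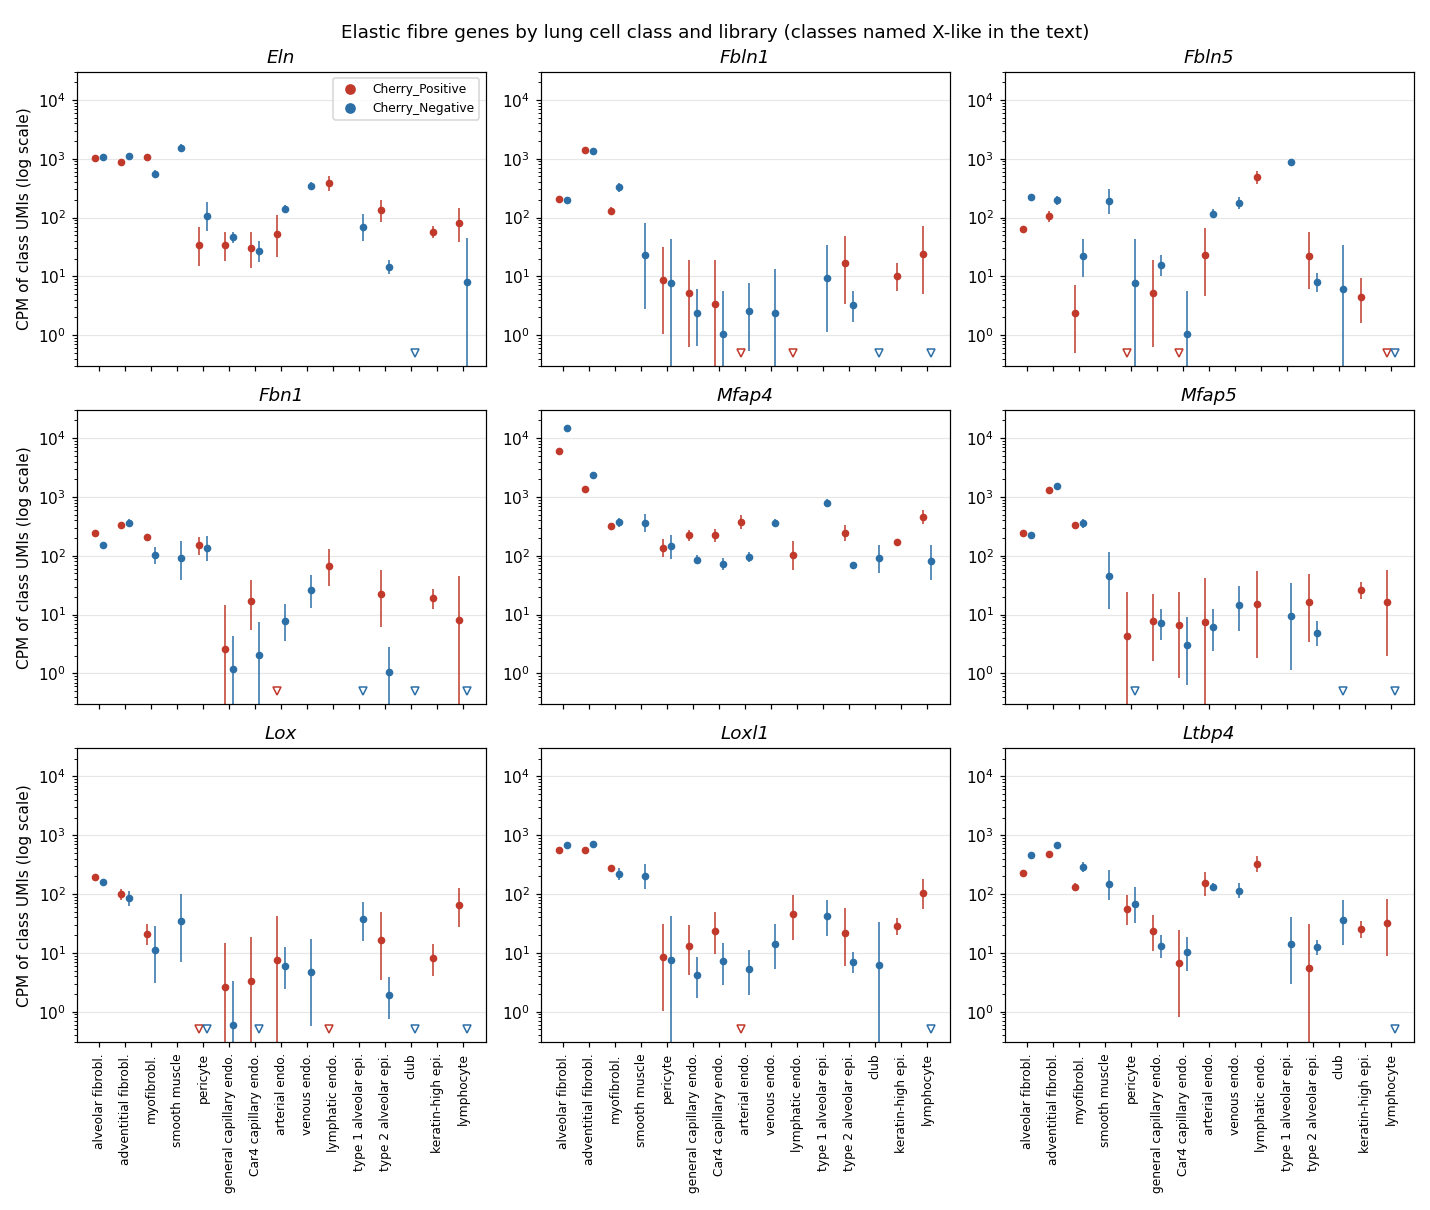
Level of each gene (CPM of the class UMIs, log axis) in classes with at least 20 cells, in the Cherry_Positive (red) and Cherry_Negative (blue) libraries. Bars are exact 95% Poisson intervals and open triangles mark 0 UMIs; Fbln1 and Mfap5 peak in adventitial fibroblast-like cells, Mfap4 in alveolar fibroblast-like cells and Fbln5 in type 1 epithelial-like or lymphatic-like cells.

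The libraries were compared in the 6 classes with at least 50 cells in each. A gene was compared where both libraries together gave at least 30 UMIs, and it was counted as higher or lower in the Cherry_Positive library where the CPM ratio reached 1.5-fold and its 95% interval left out 1. Scaling by trimmed means instead of class totals would shift log2 ratios by 0.14 in alveolar fibroblast-like, 0.08 in adventitial, 0.20 in myofibroblast-like and 0.26 in pericyte-like cells. It would shift them by 0.08 in general capillary-like and -0.02 in Car4 capillary-like cells.

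In alveolar fibroblast-like cells (867 Cherry_Positive and 465 Cherry_Negative cells), Fbln5, Mfap4 and Ltbp4 were lower in the Cherry_Positive library, Fbn1 was higher, and Eln, Fbln1, Mfap5, Lox and Loxl1 met neither criterion. Thus 1 member was higher and 3 were lower of 9 compared, where 10.2% of all 9638 genes were higher and 13.5% lower by the same rule. The median log2 ratio of the members was -0.06, and that of all genes -0.07. Fbln5 stood at 62.8 and 225 CPM in the Cherry_Positive and Cherry_Negative libraries, 3.58-fold lower (3.05 to 4.19). Mfap4 stood at 5999 and 14954 CPM, 2.49-fold lower (2.45 to 2.54). Ltbp4 stood at 232 and 468 CPM, 2.02-fold lower (1.84 to 2.22). Fbn1 stood at 247 and 150 CPM, a ratio of 1.65 (1.43 to 1.90). The Eln ratio was 0.961 (0.909 to 1.02), so its class totals differed little. Loxl1 at 0.821 (0.764 to 0.882) and Lox at 1.19 (1.04 to 1.38) had intervals off 1 but under the fold. Fbln1 at 1.07 (0.943 to 1.22) and Mfap5 at 1.09 (0.970 to 1.24) had intervals that include 1.

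**Figure D2:**
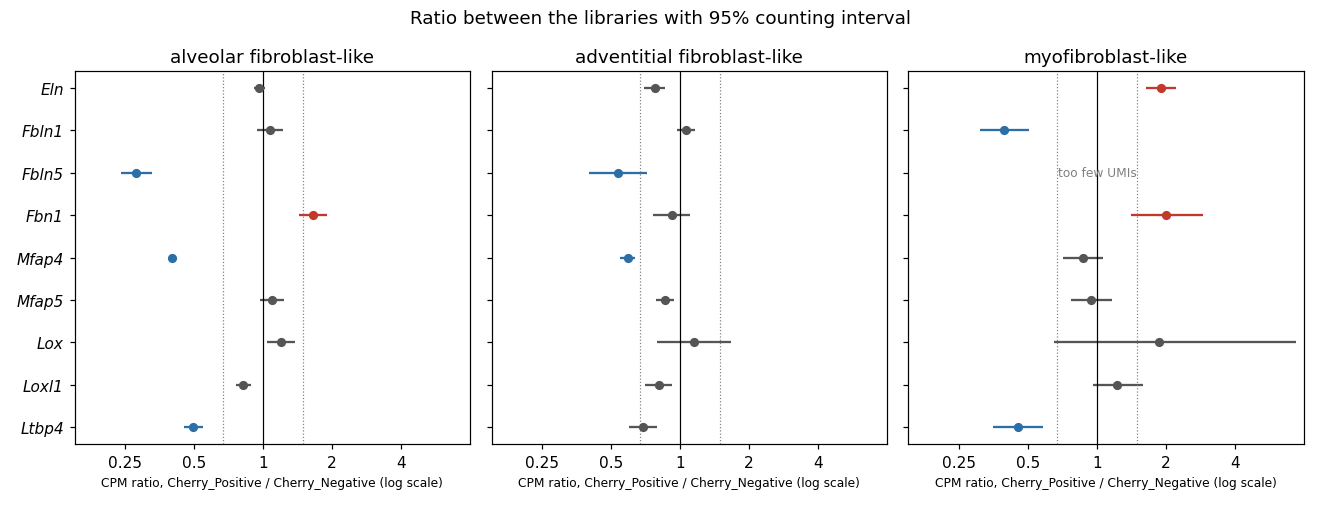
CPM ratio of the Cherry_Positive to the Cherry_Negative library (log axis) with its 95% counting interval, for 3 fibroblast classes; dotted lines mark 1.5-fold, red is higher and blue lower by the rule. Fbln5, Mfap4 and Ltbp4 lie left of 1 in alveolar fibroblast-like cells, and Eln and Fbn1 right of 1 in myofibroblast-like cells.

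The alveolar fibroblast-like class was made of different clusters in the 2 libraries. Cluster 1, whose leading genes include the alveolar fibroblast markers Slc7a10, Tcf21 and Inmt, held 161 Cherry_Positive and 334 Cherry_Negative cells. Cluster 6 (C4b, Rbp4 and Serpina3n) held 215 and 93. Cluster 7, led by chemokine and interferon-response genes such as Cxcl10, Ccl2 and Rsad2, held 286 and 7, and cluster 9, led by Tfpi2, Tnc and Fst, held 203 and 17. In clusters 7 and 9 none of the 10 leading genes was a marker of the class, although 11 of its 12 markers were detected in each. Cluster 21 held 2 and 14 cells and also carried general capillary markers.

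Mfap4 levels differed between the clusters. In the Cherry_Positive library its level was 16294 CPM in cluster 1, was 4982 CPM for cluster 6, and was 4072 and 3619 CPM in clusters 7 and 9. In the Cherry_Negative library it was 18955 CPM in cluster 1 and 5597 in cluster 6. Within cluster 1 the ratio between the libraries was 0.860 and within cluster 6 it was 0.890, against 0.401 for the whole class. Fbn1 also differed between the clusters. It was lowest in cluster 1, at 151 and 120 CPM, and between 238 and 280 CPM in the other clusters with at least 25 cells. Its ratio was 1.26 in cluster 1 and 1.08 in cluster 6. Fbln5 stood at 188 and 239 CPM in cluster 1, 82.3 and 223 CPM in cluster 6, and 26.8 and 22.4 CPM in Cherry_Positive clusters 7 and 9. Its ratio was 0.788 in cluster 1 and 0.369 in cluster 6.

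Ltbp4 kept a difference past 1.5-fold within both clusters. It stood at 308 and 478 CPM in cluster 1, a ratio of 0.644, and at 334 and 502 CPM in cluster 6, a ratio of 0.664. Eln, near equal over the class, was lower in the Cherry_Positive library in each of these clusters, at 761 and 1088 CPM in cluster 1 (ratio 0.700) and 761 and 1121 CPM in cluster 6 (ratio 0.679). Both stop short of 1.5-fold. The Cherry_Positive cells of cluster 9 had 1865 CPM (1784 to 1949) of Eln, the highest of its 4 larger clusters, and Eln is among the genes that define that cluster. With Cherry_Positive clusters weighted as in the Cherry_Negative library, an alternative chosen after seeing the data, the class ratios were 0.867 for Mfap4, 0.680 for Fbln5, 1.22 for Fbn1, 0.743 for Eln and 0.656 for Ltbp4. Under it Ltbp4 alone of the 9 was past the fold, which was judged there without an interval. Lox was 174 and 81.7 CPM in cluster 6, a ratio of 2.14, and 220 and 194 CPM in cluster 1, a ratio of 1.13. The part of cell mix and of level within a cell state cannot be told apart for clusters 7 and 9, which hold too few Cherry_Negative cells.

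**Figure D3:**
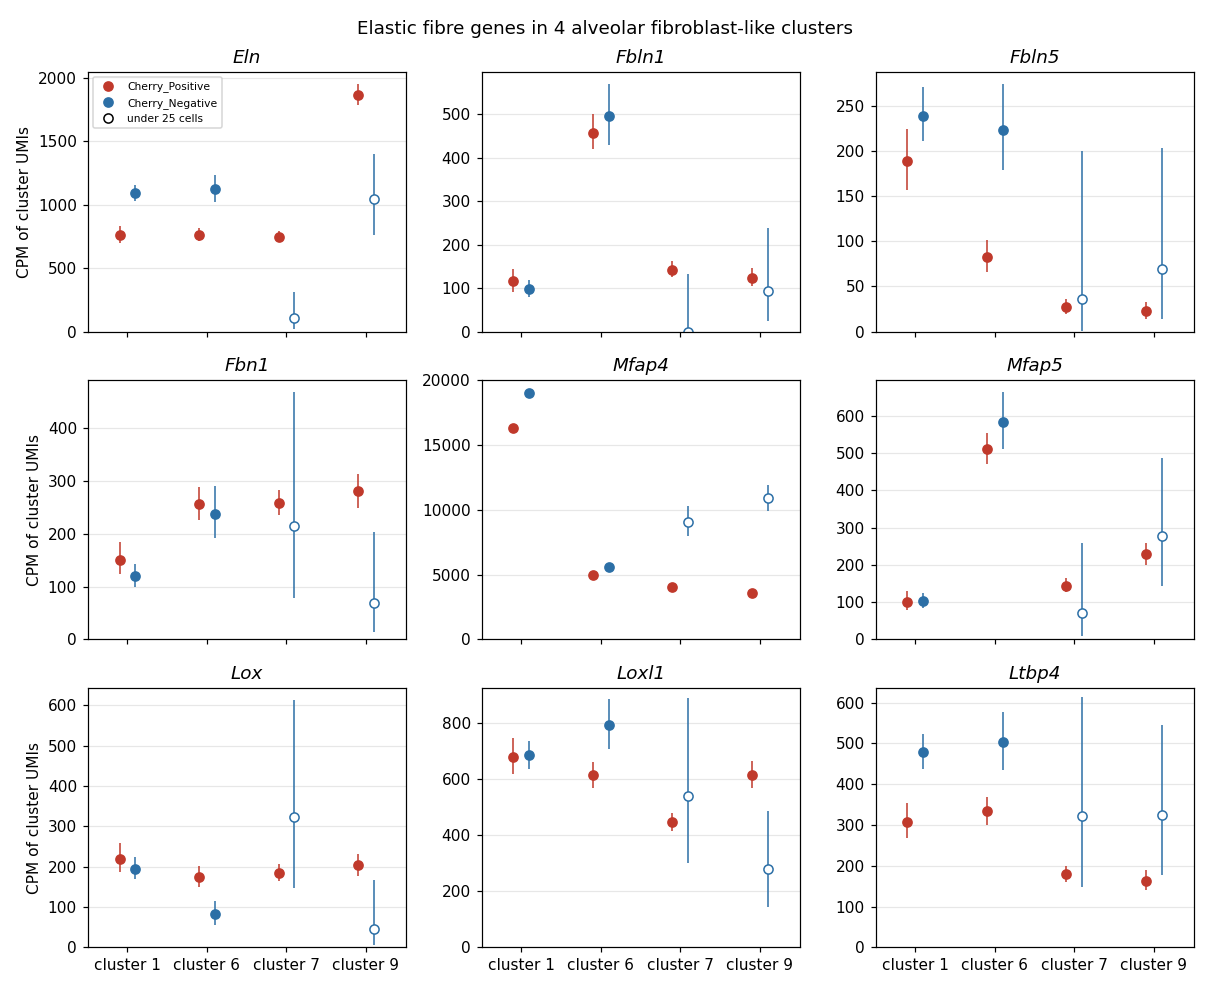
Level of each gene (CPM of the cluster UMIs, linear axis from 0) in 4 alveolar fibroblast-like clusters, with exact 95% Poisson intervals; open points rest on under 25 cells. Mfap4 and Fbln5 are highest in cluster 1, Eln in the Cherry_Positive cells of cluster 9, and Fbln1 and Mfap5 in cluster 6.

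Fbln1 and Mfap5 marked cluster 6 among these clusters. Fbln1 stood there at 457 and 495 CPM, against 115 and 98.1 CPM in cluster 1 of the Cherry_Positive and Cherry_Negative libraries. Mfap5 stood at 511 and 584 CPM in cluster 6 and at 102 and 103 CPM in cluster 1. The ratios between the libraries within cluster 6 were 0.924 and 0.875. Cluster 6 is also the alveolar fibroblast-like cluster with the highest adventitial marker score, and both genes peak in the adventitial class.

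The per-cell distributions were compared at equal depth, with each cell thinned to 2000 UMIs, which left 849 Cherry_Positive and 403 Cherry_Negative cells and dropped 18 and 62 shallower ones. The median Mfap4 count was 9 UMIs per Cherry_Positive cell and 25 per Cherry_Negative cell. Cells with over 40 Mfap4 UMIs were 8.01% and 27.5%, and cells with 0 were 6.12% and 1.49%. For Eln, 53.6% of Cherry_Positive cells (exact 95% binomial interval 50.2 to 57.0) and 67.2% of Cherry_Negative cells (62.4 to 71.8) had a UMI. Without thinning the shares were 72.7% and 74.8%, at median depths of 4510 and 3127 UMIs. Thinned Car4 capillary-like cells, which are not known as elastin makers, gave 7.59% and 4.42% from median depths of 3135 and 2677 UMIs. Cells with 3 to 10 Eln UMIs were 16.7% (14.3 to 19.4) of Cherry_Positive and 27.3% (23.0 to 31.9) of Cherry_Negative cells. Cells with at least 11 were 3.06% (2.01 to 4.46), or 26 cells, and 0.993% (0.271 to 2.52), or 4 cells, so at the highest counts the intervals overlap. At a near-equal class level, the Cherry_Positive share was thus smaller from 1 to 10 UMIs and, in few cells, larger above.

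**Figure D4:**
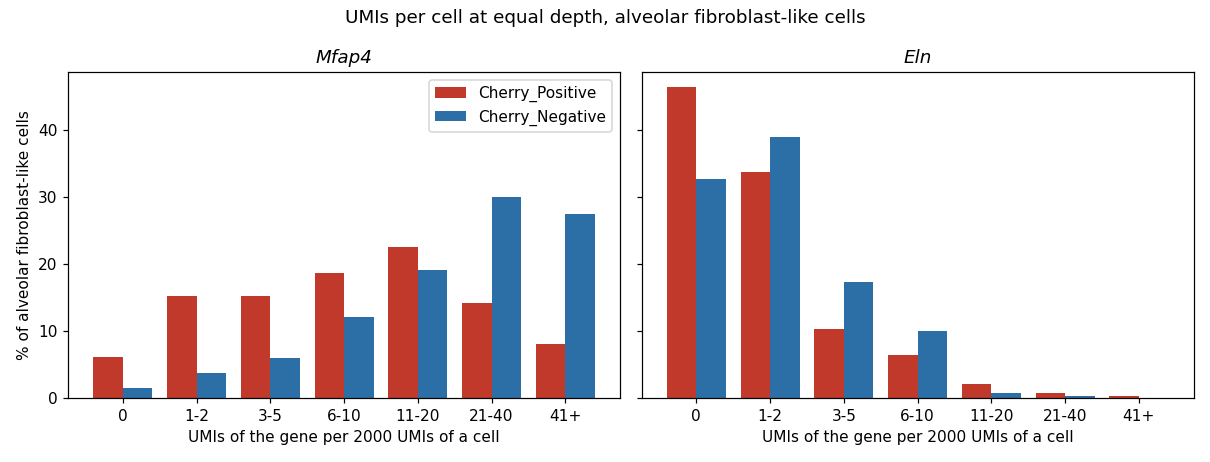
Share of alveolar fibroblast-like cells (percent, 849 Cherry_Positive and 403 Cherry_Negative cells) by UMIs of Mfap4 (left) and Eln (right) after thinning each cell to 2000 UMIs. The Cherry_Negative cells lie further right for Mfap4, and for Eln the Cherry_Positive cells have more zeros, 46.4% against 32.8%.

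In adventitial fibroblast-like cells (126 and 114 cells, all cluster 8), Fbln5 and Mfap4 were lower in the Cherry_Positive library, and the other 7 members met neither criterion. No member was higher, where 5.55% of 5185 genes were higher and 6.65% lower. Fbln5 stood at 105 and 196 CPM, 1.87-fold lower (1.40 to 2.50), and Mfap4 at 1382 and 2345 CPM, 1.70-fold lower (1.57 to 1.84). Neither reached 2-fold. Ltbp4 at 473 and 686 CPM had a ratio of 0.689 (0.598 to 0.795), just inside the fold, and Eln at 868 and 1120 CPM had 0.775 (0.695 to 0.864). Fbln1 and Mfap5, the members that peak in this class, had ratios of 1.06 (0.971 to 1.17) and 0.860 (0.785 to 0.942). Under 10 of 11 alternatives Fbln1 again met neither criterion, and under the other it was higher, with a ratio of 1.75. The 12 alveolar fibroblast markers summed to 1385 CPM in these Cherry_Positive cells and 3186 CPM in the Cherry_Negative cells, with 12 and 11 of them detected and Slc7a10 at 0 in the latter. Their part in the Mfap4 and Fbln5 values was not tested. With each library clustered by itself, the class held 135 and 288 cells and the Mfap4 ratio was 0.264.

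Cluster 5, the whole myofibroblast-like class, scored near equal for myofibroblast (2.86) and smooth muscle (2.875) markers and was named by its leading genes. In myofibroblast-like cells (243 and 133 cells, all cluster 5), Eln and Fbn1 were higher in the Cherry_Positive library, and Fbln1 and Ltbp4 were lower. The rule thus counted 2 higher and 2 lower of 8 members compared, where 7.7% of 5490 genes were higher and 9.89% lower. Eln stood at 1055 and 553 CPM, a ratio of 1.91 (1.64 to 2.22), and Fbn1 at 206 and 103 CPM, a ratio of 2.003 (1.42 to 2.91). Fbln1 stood at 128 and 325 CPM, 2.54-fold lower (1.98 to 3.24), and Ltbp4 at 131 and 292 CPM, 2.22-fold lower (1.72 to 2.85). Mfap4 at 326 and 375 CPM, Mfap5 at 336 and 356 CPM and Loxl1 at 272 and 222 CPM had intervals that include 1. Lox had 26 and 4 UMIs, a ratio of 1.87 with an interval from 0.650 to 7.39, and Fbln5 had 3 and 8 UMIs and was not compared.

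The 4 calls held in 1 of 2 finer clusters and not in the other, a split looked at after seeing the data. At resolution 2 the class split into a cluster led by Actg2 (182 Cherry_Positive and 21 Cherry_Negative cells) and a cluster led by Hhip and Aspn (61 and 110 cells). The Actg2 cluster has the smooth muscle genes Acta2 and Tagln among its 10 leading genes and was named smooth muscle at that resolution. Only the Hhip cluster kept the myofibroblast name. The class thus held mostly the Actg2 cluster in the Cherry_Positive library and mostly the Hhip cluster in the Cherry_Negative library. In the Actg2 cluster Eln was 1133 and 691 CPM, a ratio of 1.64 (1.19 to 2.33), and Fbn1 223 and 72.7 CPM, a ratio of 3.06 (1.18 to 11.3). Fbln1 stood there at 108 and 309 CPM, a ratio of 0.351 (0.210 to 0.624), and Ltbp4 at 107 and 327 CPM, a ratio of 0.328 (0.199 to 0.575). All 4 differences over the class were thus also past the fold in this cluster, and Mfap4 was lower too (0.372, 0.272 to 0.518). The 21 Cherry_Negative cells there held 38 UMIs of Eln, 17 of Fbln1, 18 of Ltbp4 and 4 of Fbn1. Within the Hhip cluster, where Eln was 679 and 534 CPM, the ratios were 1.27 for Eln, 1.18 for Fbn1, 0.673 for Fbln1 and 0.864 for Ltbp4, and 0 members were past the fold.

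Pericyte-like cells (63 and 50 cells) gave enough UMIs for Fbn1 and Mfap4. Fbn1 stood at 151 and 138 CPM, a ratio of 1.09 (0.602 to 2.05), and Mfap4 at 138 and 146 CPM, a ratio of 0.946 (0.520 to 1.77). Hence 0 members were past the fold, where 8.91% of 2109 genes were higher and 8.87% lower, and the intervals would not have excluded a change of 1.5-fold either way. Mfap4 stood at 4.59% and 6.39% of its level over all cells of the library. After subtracting 5% of the library-wide profile, 0 and 4 Mfap4 UMIs were left, and 33 and 18 of Fbn1. The part of free RNA from other cells in the Mfap4 values was not tested. Eln, with 8 and 14 UMIs, was too sparse to compare.

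In both capillary endothelial-like classes Mfap4 was the member higher in the Cherry_Positive library, opposite in direction to the alveolar fibroblast-like cells, although that difference between classes was not tested. In general capillary-like cells (92 and 604) it stood at 225 and 86.1 CPM, a ratio of 2.62 (1.98 to 3.44). Of 3 members compared, 1 was higher and 0 lower, where 3.81% of 6722 genes were higher and 7.19% lower. In Car4 capillary-like cells (82 and 308) it stood at 223 and 73.0 CPM, a ratio of 3.06 (2.16 to 4.34), as 1 of 2 members compared, where 2.22% of 5231 genes were higher and 2.56% lower. Eln had ratios of 0.731 (0.373 to 1.33) and 1.14 (0.470 to 2.51). The general capillary-like class joined cluster 0 (60 Cherry_Positive and 547 Cherry_Negative cells) and cluster 13 (32 and 57 cells), led by genes such as Ubd and Ido1. Cluster 13 thus made up a larger share of the Cherry_Positive cells. Under the alternatives, which include each cluster by itself, the Mfap4 ratio of this class ran from 2.14 to 4.19. The part of this mix in the list genes below was not tested.

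Type 2 alveolar epithelial-like cells, which are not known to make Mfap4, gave its UMIs as well. They had 244 CPM in 22 Cherry_Positive cells, with 59.1% of those UMIs in 1 cell, and 70.9 CPM in the Cherry_Negative library. Without the richest cell of each class the Cherry_Positive levels were 110 CPM (65.4 to 174) in type 2 cells, 176 CPM (137 to 224) in general capillary-like and 178 CPM (133 to 233) in Car4 capillary-like cells. A UMI of Mfap4 was found in 43.5% and 19.0% of general capillary-like cells and in 63.6% and 37.9% of type 2 cells, at median depths of 3608 and 2260 UMIs and of 6844 and 8154 UMIs. Over all cells of a library Mfap4 was 3009 and 2283 CPM, so the general capillary-like level was 7.49% and 3.77% of the library-wide level, and the type 2 level 8.11% and 3.10%. Of the 12 alveolar fibroblast markers, 9 and 12 were detected in general capillary-like cells, with summed levels of 254 and 126 CPM and Tcf21, Slc7a10 and Fgfr4 at 0 in the Cherry_Positive cells. In Car4 capillary-like cells 9 and 11 were detected, summing to 213 and 117 CPM, with Slc7a10, Fgfr4 and Scube2 at 0 in the Cherry_Positive and Fgfr4 at 0 in the Cherry_Negative cells. After subtracting 5% of the library-wide profile, 29 and 22 Mfap4 UMIs were left in the 2 Cherry_Positive capillary classes and 0 in the Cherry_Negative ones, too few to compare. The part of free RNA and of fibroblast RNA in the capillary-like values was not tested.

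Members were often found in the same cell. At 2000 UMIs per cell the median number of members with a UMI was 4 in alveolar fibroblast-like cells of either library, 5 in adventitial fibroblast-like cells, and 2 and 3 in Cherry_Positive and Cherry_Negative myofibroblast-like cells. Cells with at least 5 members were 33.0% and 43.9% of alveolar fibroblast-like, 63.5% and 67.3% of adventitial and 6.20% and 9.28% of myofibroblast-like cells. Fbln1 and Mfap5 were seen together in 61.9% and 67.3% of adventitial fibroblast-like cells, close to the products of their own shares, 62.1% and 64.7%. In alveolar fibroblast-like cells they were together in 9.66% and 10.2% of cells, where the products are 7.04% and 5.15%. Both genes were highest in cluster 6 of that class, and the part of the clusters in this excess was not tested. Other pairs there lay above, near or below their products. Fbn1 and Lox were together in 11.5% of Cherry_Positive cells against 10.5%, and in 4.71% of Cherry_Negative cells against 6.58%.

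Across 24 sums of classes with at least 20 cells, 1 per class and library, the genes with the most similar log2 pattern were found among 9816 genes. These correlations are descriptions, since the sums of 1 library share its depth and free RNA and the same class enters from both libraries. Fbln1 and Mfap5 were close to each other (Pearson r = 0.973). Fbln1 was also near Srpx (0.975) and Cygb (0.959), and Mfap5 near Cygb (0.969) and Epha3 (0.953). Fbn1 was nearest to the collagen-modifying gene P3h3 (0.953), Col5a1 (0.932) and Col1a1 (0.929), the last 2 fibrillar collagen genes. Mfap4 was nearest to Spon1 (0.943), Figf (0.935) and Inmt (0.929), and Lox to Pdgfra (0.929), Spon1 (0.927) and Mfap4 (0.923). Loxl1 was nearest to Sod3 (0.959), Ogn (0.951) and Col6a3 (0.945). Eln was nearest to Myh10 (0.885), Smtnl2 (0.882) and Plcd1 (0.878), and Ltbp4 to Tshz2 (0.863), Copz2 (0.858) and Pmepa1 (0.846). Fbln5 had the weakest neighbours, Ndst1 (0.783), Zfyve21 (0.767) and Dip2c (0.753), and its r with the other members ran from 0.282 for Fbn1 to 0.592 for Eln.

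Counts over the lists below stand beside the shares of all compared genes given above for each class, as higher and lower. These were 10.2% and 13.5% in alveolar fibroblast-like, 5.55% and 6.65% in adventitial, 7.7% and 9.89% in myofibroblast-like, 8.91% and 8.87% in pericyte-like, 3.81% and 7.19% in general capillary-like and 2.22% and 2.56% in Car4 capillary-like cells. With 1 to 16 genes compared per list and class, nothing particular to a list is read from them. The alveolar fibroblast-like and myofibroblast-like classes held different mixes of clusters or finer clusters in the 2 libraries. The part of that mix in the ratios of list genes was not tested.

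Other genes of the elastic fibre were taken from a list of 20. In alveolar fibroblast-like cells 16 were compared, of which 5 were higher and 3 lower in the Cherry_Positive library, where 10.2% and 13.5% of all genes were. The median log2 ratio of the 18 with at least 10 UMIs was 0.08, against -0.09 for all 11445 such genes. Efemp2, which encodes fibulin-4 and brings lysyl oxidase to tropoelastin, was higher at 250 and 154 CPM, a ratio of 1.63 (1.42 to 1.88). Ltbp2 stood at 47.3 and 5.67 CPM, a ratio of 8.34 (4.31 to 18.5), with 9 UMIs in the Cherry_Negative cells. The proteoglycan gene Vcan stood at 62.4 and 10.1 CPM, a ratio of 6.19 with an interval from 3.75. The lysyl oxidase-like genes Loxl2 and Loxl3 had ratios of 2.61 and 1.91. Efemp1, encoding fibulin-3, was 1.83-fold lower, Adamtsl2 1.69-fold lower and Adamts10 1.63-fold lower.

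In myofibroblast-like cells 3 of 12 compared genes of that list were higher and 0 lower, namely Ltbp2 (ratio 3.08), Loxl2 (1.65) and Emilin1 (1.58). Adventitial fibroblast-like cells had 1 higher, Vcan (1.51), and 1 lower, Efemp1 (0.637), of 15. In pericyte-like cells the microfibril gene Mfap2 was 2.73-fold lower, 1 of 5 compared. In general capillary-like cells 1 of 6 was higher, Bgn (5.34), and 1 lower, Mfap2 (0.568), and in Car4 capillary-like cells Bgn (3.03) was the 1 of 6 that was higher. Bgn, a matrix proteoglycan gene, stood at 137 and 25.7 CPM in general capillary-like and 77.9 and 25.7 CPM in Car4 capillary-like cells, and at 150 and 32.6 CPM in type 2 alveolar epithelial-like cells. Without the richest cell of each class, the Cherry_Positive level was 105 CPM in general capillary-like cells and 42.9 CPM (17.3 to 88.4), from 7 UMIs, in type 2 cells. The alveolar fibroblast markers, at 254 and 126 CPM and at 213 and 117 CPM, were higher in the Cherry_Positive cells of both capillary-like classes too, and their part was not tested.

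Of the genes that support lysyl oxidases, 7 on the list, 3 of 5 compared were higher and 0 lower in myofibroblast-like cells, where 7.7% and 9.89% of all genes were. Pcolce, an enhancer of procollagen processing, stood at 492 and 306 CPM. The matrix gene Fn1 had 82 and 2 UMIs, a ratio of 11.8 (3.17 to 99.3), and Postn had 155 and 1 UMIs, a ratio of 44.7 with an interval from 7.90. In alveolar fibroblast-like cells 1 of 5 was higher, Postn (3.77), and in adventitial fibroblast-like cells 1 of 5, Fn1 (1.67). Pcolce was also higher in pericyte-like (1.74, 1 of 3 compared) and general capillary-like cells (3.12, 1 of 2). In the latter it stood at a Cherry_Positive level of 46.6 CPM, with 18 and 25 UMIs in the 2 libraries, against 83.2 CPM in type 2 alveolar epithelial-like cells. Without the richest cell of each class these levels were 39.5 CPM (22.1 to 65.2) and 36.8 CPM (13.5 to 80.1), the latter from 6 UMIs. The fibroblast markers were higher in Cherry_Positive general capillary-like cells too, and their part was not tested.

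Of 12 genes for proteases that can act on elastin, 6 were compared in alveolar fibroblast-like cells, and 3 were higher and 0 lower, where 10.2% and 13.5% of all genes were: Mmp14 (183 and 99.5 CPM, ratio 1.84), Ctsk (69.2 and 27.7 CPM, ratio 2.50) and Prtn3 (68 and 9 UMIs, ratio 2.63). Myofibroblast-like cells had Mmp14 higher (1.93) and Mmp2 (0.392) and Ctsl (0.629) lower among 5. Adventitial fibroblast-like cells had 0 of 5 past the fold, and pericyte-like cells had Mmp14 higher (3.18) among 3. Of 8 protease inhibitors, 7 were compared in alveolar fibroblast-like cells, with 2 higher and 2 lower. Timp1 stood at 2187 and 237 CPM, a ratio of 9.24 (8.33 to 10.3), and Serpina3n at 582 and 200 CPM, a ratio of 2.92. Timp1 was among the leading genes of cluster 7, with 286 Cherry_Positive and 7 Cherry_Negative cells. Serpina3n was among those of cluster 6, with 215 and 93 cells. Timp3 was 1.87-fold lower and Cst3 1.57-fold lower. Timp1 was higher and Timp3 lower in adventitial (4.08 and 0.602) and myofibroblast-like cells (4.68 and 0.589) too, and in pericyte-like cells both were higher (12.9 and 1.73), with 3 Cherry_Negative Timp1 UMIs. The acute-phase inhibitor Serpina3n was higher in adventitial (2.94) and myofibroblast-like cells (4.90), and Serpine2 in myofibroblast-like cells (1.62). General capillary-like cells had 3 of 5 inhibitors higher, Timp1 (8.12), Timp3 (3.20) and Slpi (9.96, with 82.6% of the Cherry_Positive UMIs in 1 cell). Timp1 stood there at 77.7 and 9.57 CPM, against 72.1 and 2.16 CPM in type 2 alveolar epithelial-like cells. Without the richest cell of each class, the Cherry_Positive Timp1 level was 71.1 CPM (46.9 to 104) in general capillary-like cells. In type 2 cells it was then 12.3 CPM (1.49 to 44.3), from 2 UMIs. Timp3 stood at 715 and 223 CPM in general capillary-like cells, against 77.7 and 63.3 CPM in type 2 cells.

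Among 10 TGF-beta ligands, receptors and targets, 9 were compared in alveolar fibroblast-like cells, and 1 was higher and 1 lower. The ligand gene Tgfb1 stood at 125 and 34.6 CPM, a ratio of 3.60 (2.73 to 4.84). The co-receptor Tgfbr3 was 1.69-fold lower. The ligand Tgfb3 was lower in adventitial (0.478) and myofibroblast-like cells (0.577). The target Ctgf was higher in adventitial (1.93), myofibroblast-like (2.33), pericyte-like (1.77) and general capillary-like cells (1.86). Tgfbi, also a target, was lower in adventitial (0.657) and myofibroblast-like cells (0.660). Myofibroblast-like cells had Tgfb1 higher (1.86) and Tgfbr3 lower (0.642) too, pericyte-like cells had Tgfb2 lower (0.430) and general capillary-like cells the inhibitory Smad7 lower (0.468). Of the integrins that bind RGD, which fibulin-5 and fibrillin-1 carry, 5 were compared in alveolar fibroblast-like cells. Itga5 was higher (2.12) and Itga8 2.83-fold lower, and Itga8 was itself a marker of that class. Itga5, a subunit of the fibronectin receptor, was also higher in adventitial (2.72) and myofibroblast-like cells (4.61, with 3 Cherry_Negative UMIs) and lower in general capillary-like cells (0.527), and Itgb5 was lower in pericyte-like cells (0.401). In Car4 capillary-like cells 0 genes of these last 5 lists were past the fold.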

How the data were processed

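The deposited matrices hold whole-number counts of 27998 genes by barcode, taken as UMIs because the libraries are Chromium 3', per the labels' protocols. Cell Ranger 2.1.1, mm10, Seurat 4.0.2 and R 4.0.3 are listed in the submitters' processing notes, without their roles, and the sources used here give no further settings. Members, lists and markers were chosen with earlier results of these data known. The list of TGF-beta genes is given without 1 gene, which is not reported here.

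Barcodes needed at least 500 genes and at most 10% mitochondrial UMIs (this removed 56 Cherry_Positive, 50 Cherry_Negative). Scrublet in scanpy 1.11.5 (expected rate 2%) removed 4 (0.226%) and 7 (0.249%) doublets, and with so few calls doublets may remain. Cells were clustered together on 2000 variable genes, 30 components and 15 neighbours with leidenalg 0.10.2 (resolution 1, seed 0), without batch correction, into 23 clusters. Clusters were named from 22 marker classes. A name needed 3 markers detected in 10% of cells and at 10% of their highest cluster level; classes were ranked by how many of their markers were among a cluster's 10 leading genes (10 CPM added, at least 50 CPM), then by score. This ranking was set after the clusters were seen. The keratin-high class had 3 detected markers and 0 leading ones, and the club-like cluster also held ciliated genes.

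UMIs were summed per class and library (Python 3.11.15, numpy 2.4.6, scipy 1.17.1, pandas 2.3.3). Intervals are at 95%: exact Poisson for a level, exact binomial for a share of cells, and for a ratio the binomial interval of the share of its UMIs that came from one library. A 0 has a limit of 3 counts. All 9 members were named in every class, list genes where past 1.5-fold with 30 UMIs and an interval off 1, and the 3 most similar genes per member (at least 100 UMIs, log2 of CPM + 10). List medians used genes with 10 UMIs and 0.5 added to counts. The alternatives covered cell filters, doublets, clustering, scaling, fold, UMI minimum, thinning, free RNA and single clusters. The counting step was tested on simulated counts. Plots used matplotlib 3.10.9.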

Additional observations from a re-analysis of the deposited data

Results flagged for a closer look

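Mfap4 differed between the libraries in opposite directions in 2 kinds of cell. Its ratio of the Cherry_Positive to the Cherry_Negative library was 0.401 in alveolar fibroblast-like and 0.590 in adventitial fibroblast-like cells, and 2.62 in general capillary-like and 3.06 in Car4 capillary-like cells. With 1 library on each side the difference between the classes was not tested. In general capillary-like cells the level was 225 and 86.1 CPM, and in type 2 alveolar epithelial-like cells 244 and 70.9 CPM. Of the Cherry_Positive type 2 UMIs, 59.1% were in 1 cell. Without the richest cell the Cherry_Positive levels were 176 CPM (137 to 224) and 110 CPM (65.4 to 174).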

How the results depend on the processing

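No paired analysis was possible because each sort group has 1 library and no value comes from a test. Of 12 ratios past the fold, all kept their direction under all 148 alternatives that gave a value, 134 kept the call, and 4 ratios kept it under every one: Ltbp4 in alveolar fibroblast-like cells, Fbln5 in adventitial fibroblast-like cells and Mfap4 in both capillary-like classes. For the last 2, subtracting 5% of the library-wide profile gave no ratio, since it left 0 Cherry_Negative UMIs, and Mfap4 was then not called. The 2-fold setting changes the call rule and is not among these. With means over cells and with weighted clusters, a call needed the fold and the UMI minimum but no interval. In alveolar fibroblast-like cells the number of members past the fold fell from 4 to 1 in cluster 1 by itself and to 1 with clusters weighted as in the Cherry_Negative library. In adventitial fibroblast-like cells it went from 2 to 1 with means over cells of CPM and to 0 at 2-fold, and in myofibroblast-like cells from 4 to 0 at resolution 2, where the name stayed with 61 of 243 Cherry_Positive cells. In the other cluster of those cells all 4 were past the fold. In general capillary-like cells it went from 1 to 2 at resolution 0.5, with at least 1000 genes and at most 5% mitochondrial UMIs, with each library clustered by itself and with means over cells, and in Car4 capillary-like cells from 1 to 0 after subtracting 5% of the library-wide profile. In general capillary-like cells that setting called Eln lower in place of Mfap4. Pericyte-like cells were too few under the stricter cell filter to give a value. With each library clustered by itself, Fbln1 and Mfap5 in alveolar fibroblast-like cells had ratios of 2.38 and 3.65. Genes past the fold in pericyte-like cells rose from 375 to 612 at a minimum of 10 UMIs and 717 with none, and in Car4 capillary-like cells from 250 to 404 with none. Depth limits the pericyte-like and capillary-like classes most, where 7, 6 and 7 of the 9 members had under 30 UMIs.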

Other observations

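Mesothelial-like cells, 11 Cherry_Positive and 12 Cherry_Negative, carried several elastic fibre genes. Loxl1 stood at 365 and 149 CPM, Eln at 354 and 610 CPM and Ltbp4 at 107 and 298 CPM, while Mfap5 had 1 UMI in each library. One cell held 30.3% and 29.3% of the Eln UMIs. The 130 keratin-high epithelial-like cells of the Cherry_Positive library, whose leading genes include the cell cycle genes Birc5 and Cdc20, had low levels of the members, such as 56.9 CPM of Eln and 28.4 CPM of Loxl1. In 5 lymphatic-like cells of the Cherry_Negative library Ltbp4 reached 1144 CPM with an interval from 640 to 1887.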
